A study of Mus musculus with 36 samples.

Results

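Clustered protocadherins are cadherin-family adhesion proteins of the neuronal surface. In mouse they are encoded by alpha, beta and gamma clusters lying side by side on chromosome 18. In the alpha and gamma clusters each variable exon has its own promoter and is spliced to constant exons shared by the whole cluster, while beta genes consist of a single large exon. Single neurons use different combinations of alternate members, and the proteins bind like to like, which serves self-recognition of neurites. Promoter choice is known to depend on CTCF, cohesin and DNA methylation, and the clusters are also known targets of SMCHD1 and SETDB1. The C-type members at the 3' ends of the alpha and gamma clusters are used more uniformly.

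Members were chosen by symbol, as genes named Pcdha, Pcdhb or Pcdhg in the GRCm38 annotation, and all 58 were among the 55401 genes of the count files. They comprise 12 alternate and 2 C-type alpha genes, 22 beta genes, 12 gamma A, 7 gamma B and 3 gamma C-type genes. In GRCm38 the alpha cluster spans positions 36930184 to 37187661 of chromosome 18, the beta cluster 37264938 to 37524479 and the gamma cluster 37661793 to 37841873.

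Poly(A) RNA was sequenced from mouse cells in 36 libraries, 3 in each of 12 groups. Embryonic stem cells (ESCs) were kept with LIF, serum and the inhibitors CHIRON99021 (3 µM) and PD0325901 (1 µM), and epiblast-like cells (EpiLCs) were obtained from them in 2 days on fibronectin with activin A (20 ng/ml) and bFGF (12 ng/ml). Polycomb repressive complex 2 (PRC2), which methylates histone H3 at lysine 27, occurs as PRC2.1, with a Polycomb-like protein, and PRC2.2, with JARID2. The groups at both stages were J2WT, J2KO lacking JARID2 (PRC2.2), PclWT, TKO lacking PHF1, MTF2 and PHF19, the 3 Polycomb-like proteins (PRC2.1), and QKO lacking all 4 proteins. WT and Pcgf2/4 KO, which lacks the canonical PRC1 subunits PCGF2 and PCGF4, were measured in EpiLCs only. J2WT is the matched control of J2KO, PclWT of both TKO and QKO, and WT of Pcgf2/4 KO. Each genotype is 1 line, so a difference between genotypes cannot be told apart from one between lines. Whether the 3 libraries of a group stem from independent cultures is not given in the sources used here, and all p-values refer to the spread among libraries alone, which may be technical.

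Each library held between 6784578 and 18026492 reads counted in genes (median 10472704.5), at least 15924615 in the J2 lines, up to 11253158 in PclWT, TKO and QKO, and between 10403211 and 11146921 in the last set. Mtf2 fell from 419 CPM (reads per 1e+06 counted in genes, scaled by TMM) in PclWT ESCs to 43.9 in TKO and 37.9 in QKO. Jarid2 RNA was still counted in J2KO ESCs (411 CPM, against 457 in J2WT), as were Pcgf2 (64.6, against 59.0) and Bmi1, the gene of PCGF4 (23.0, against 21.9), in Pcgf2/4 KO EpiLCs. Counts per gene thus do not show those genotypes, which are taken here from the labels. The study's chromatin-binding data of these lines were not used here. PclWT EpiLCs had little RNA of the EpiLC markers Fgf5 (0.90 CPM, against 58.3 in J2WT EpiLCs) and Otx2 (3.39, against 117), while the naive marker Klf4 was at 7.15 CPM in PclWT and 4.89 in J2WT EpiLCs. Replicate 1 of PclWT EpiLC held 75 reads of clustered protocadherins, against 170 and 183 in the other libraries of that group. It also had more reads in rRNA genes (1.21%, against 0.294% and 0.240%) and the highest share of ambiguous reads (3.80%). Genes of rRNA took 4.15% of the counts of replicate 2 of QKO EpiLC, where 30.2% of reads lay outside any single gene, and 1.93% in replicate 2 of QKO ESC.

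Nearly all reads of clustered protocadherins came from the gamma cluster. Of 11548 reads over all libraries, 10979 (95.1%) were from gamma genes, 397 (3.44%) from beta genes and 172 (1.49%) from alpha genes. The whole family took between 8.20 and 59.0 of every 1e+06 reads counted in genes. A read that lies in exons of more than 1 gene is not counted, so the shared constant exons of the alpha and gamma clusters gave no counts and the values stem from variable exons. Pcdhga10 had no exonic base free of other genes and could not be measured, which left 21 gamma genes. 5 members had no read in any library, namely Pcdha8, Pcdha11, Pcdhb9, Pcdhb12 and Pcdhga10, and exons of Pcdha11 and Pcdhb12 also overlap other genes in part. Another member that bears the symbol Pcdha11 in this annotation (Pcdha10 in RefSeq) had 5 reads. For levels per length, CPM was divided by the kilobases of exon that no other gene covers.

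**Figure D1:**
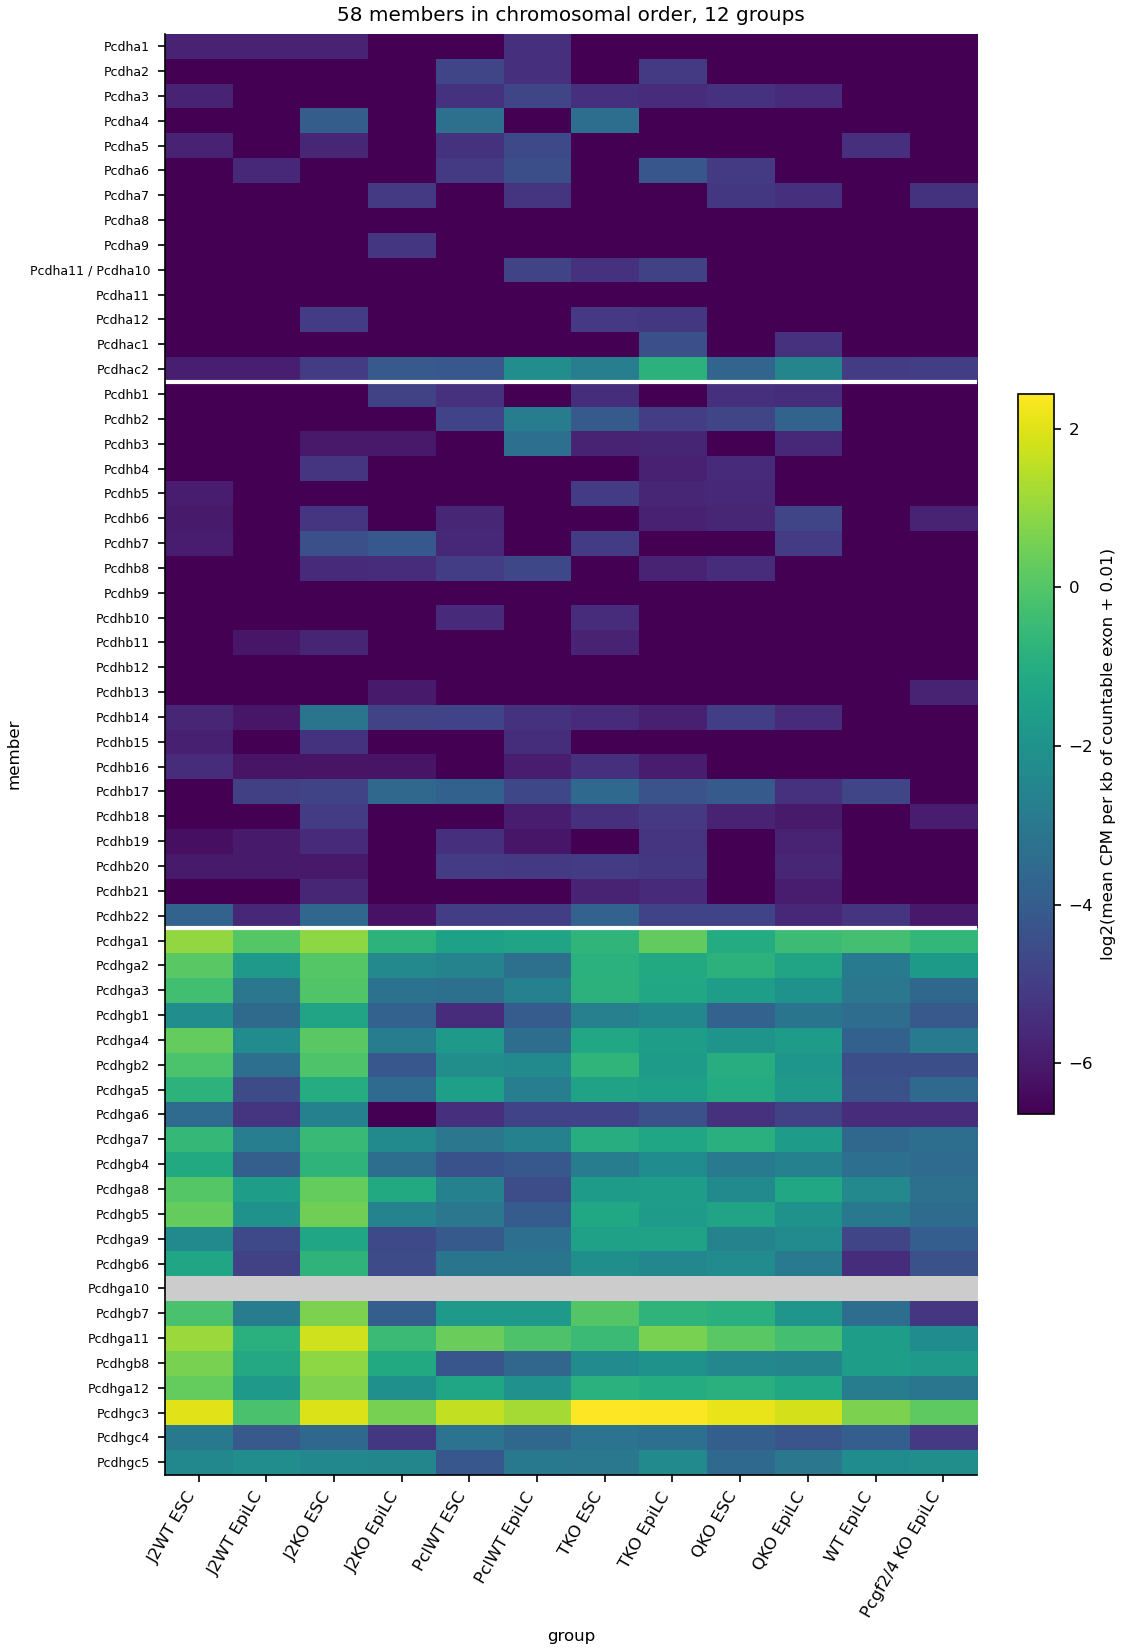
Mean level of each of the 58 members (rows, in chromosomal order) in the 12 groups (columns, 3 libraries each), as log2 of CPM per kilobase of countable exon after adding 0.01. The gamma genes at the bottom carry nearly all signal, Pcdhgc3 is the brightest row, and Pcdhga10 is grey because it could not be measured.

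Per kilobase, Pcdhgc3, a gamma C-type gene, had the highest level over the 12 J2WT and PclWT libraries, at 2.59 CPM per kb. The highest gamma A gene was Pcdhga11 (1.21 CPM per kb) and the highest gamma B gene Pcdhgb8 (0.515), which is annotated as a polymorphic pseudogene. Pcdhga1 followed Pcdhga11 at 0.929. The highest members elsewhere were far lower, at 0.0679 for the alpha C-type gene Pcdhac2, 0.0392 for Pcdhb2 and 0.0230 for Pcdha4. Pcdha4 had 3 reads in all libraries together, so its rank has no weight.

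The alternate alpha genes gave between 1 and 11 reads in any group of 3 libraries, and no single one exceeded 2 reads in a group. Pcdhac1, an alpha C-type gene, had 3 reads in TKO EpiLCs, 1 in QKO EpiLCs and 0 elsewhere. Pcdhac2 stood out in TKO EpiLCs, with 21, 15 and 12 reads, against 0, 9 and 10 in PclWT and 6, 5 and 4 in QKO EpiLCs. Every TKO EpiLC library was above every library of the other groups.

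**Figure D2:**
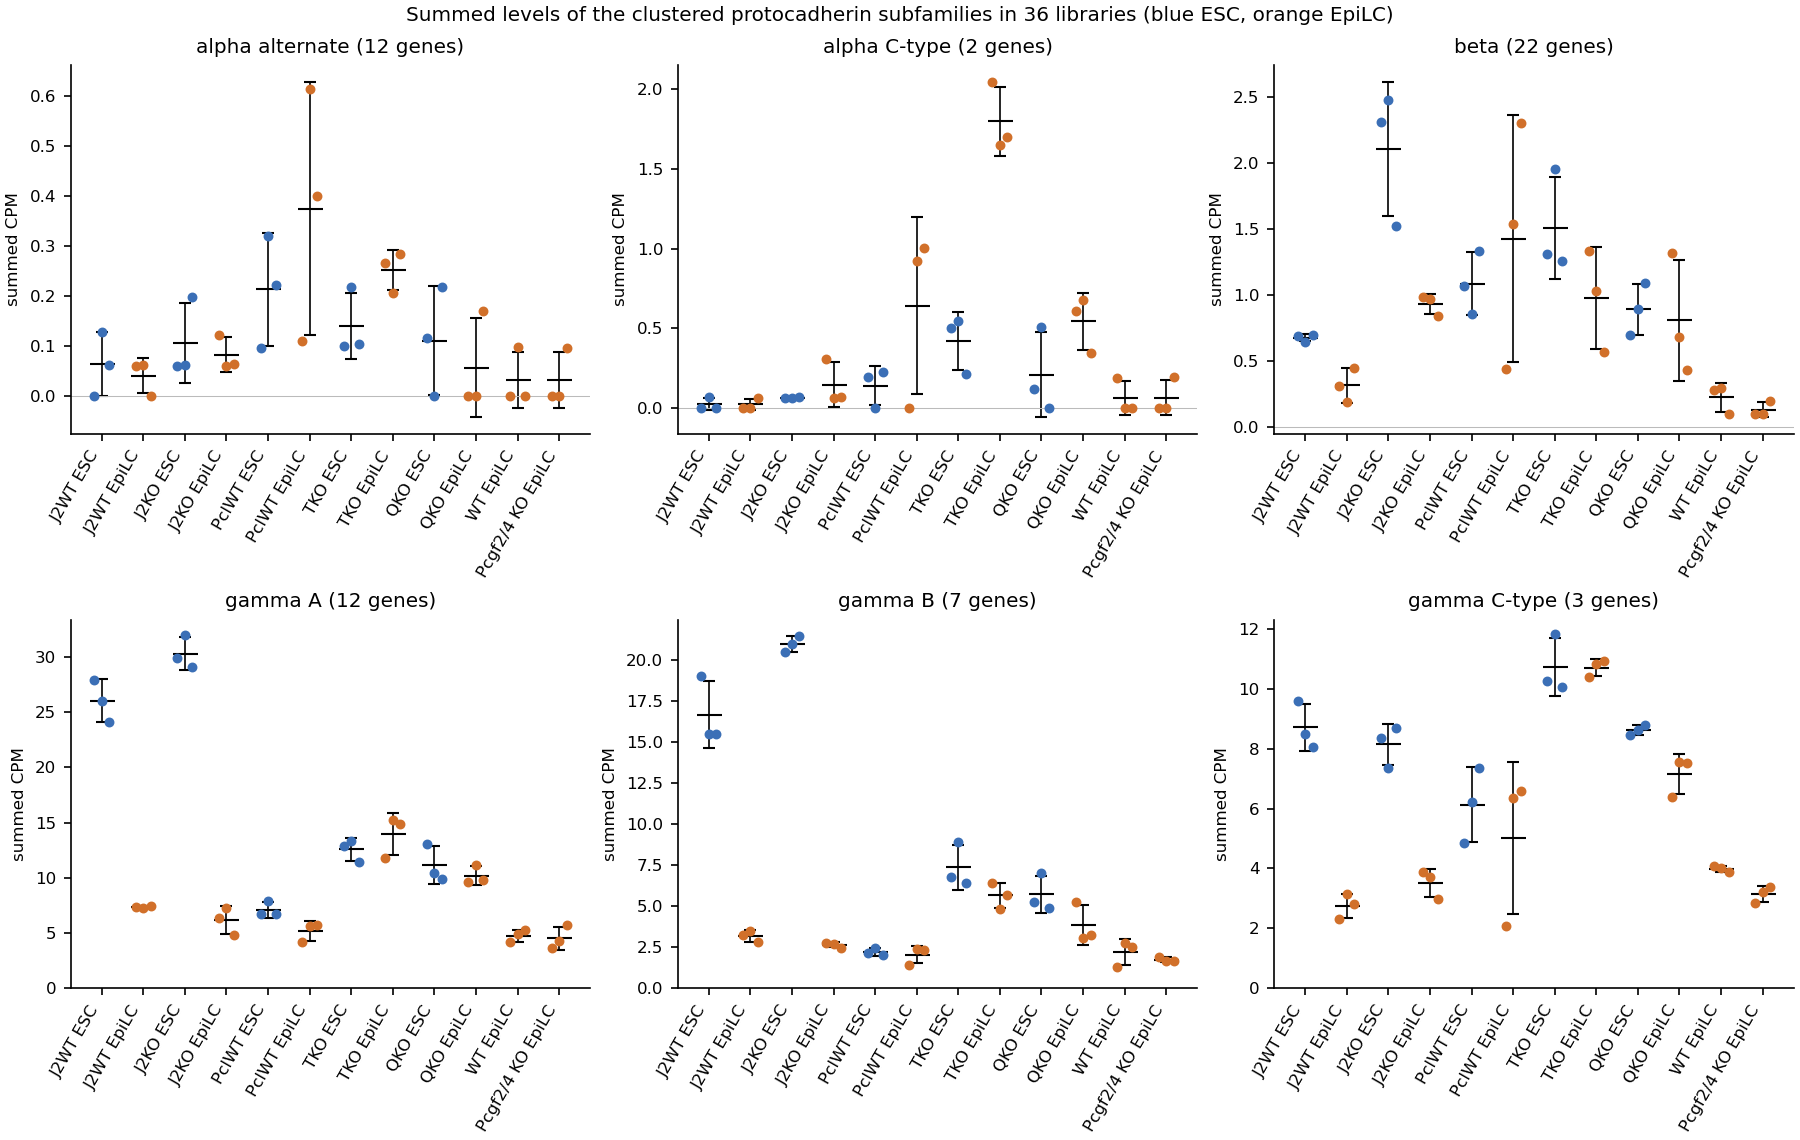
Summed CPM of the 6 subfamilies in each of 36 libraries (points), with the group mean and SD (lines), ESCs in blue and EpiLCs in orange, each panel on its own scale. Gamma A and gamma B sums were highest in J2WT and J2KO ESCs, and alpha C-type sums in TKO EpiLCs.

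The first comparison asks what happens to the clusters as WT ESCs become EpiLCs. In J2WT the gamma cluster fell from 51.4 ± 4.59 CPM in ESCs to 13.3 ± 0.519 in EpiLCs (mean ± SD, n = 3 for these and all further group values). All 18 measurable gamma A and gamma B genes were lower in every EpiLC library than in any ESC library. Over all genes with a read, 24.9% were lower in this sense. The gamma A sum went from 26.0 to 7.34 CPM, the gamma B sum from 16.7 to 3.18 and the gamma C-type sum from 8.72 to 2.75. In bulk RNA, fewer expressing cells and less RNA per cell cannot be told apart.

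Pcdhgc3 had 8.84, 6.90 and 6.74 CPM in J2WT ESCs and 1.40, 1.84 and 1.60 in J2WT EpiLCs. It fell by 2.20 on the log2 scale (SE 0.168, adjusted p = 1.09e-11, edgeR quasi-likelihood test with Benjamini-Hochberg adjustment over all genes). Pcdhgb5 had 6.29, 4.71 and 5.79 CPM in ESCs and 1.10, 1.17 and 1.09 in EpiLCs. The libraries of both stages were far apart for both genes. Pcdhgb2 fell most among the tested genes, by 3.27 on the log2 scale (SE 0.327, adjusted p = 1.65e-09). Pcdhga1, the first gene of the gamma cluster, had 6.60, 5.48 and 4.53 CPM in ESCs and 3.17, 2.94 and 2.62 in EpiLCs. Its fall of 0.915 on the log2 scale (SE 0.159, adjusted p = 1.20e-05) stayed under the fold threshold, and its share of gamma reads was 10.7% ± 1.1 in ESCs and 22.0% ± 2.3 in EpiLCs. Pcdhgc5, the last gene of the cluster, did not follow, with 39 reads in J2WT ESCs and 47 in EpiLCs (ratio 1.18, 95% counting interval 0.757 to 1.86). Pcdhgc4, the gene before it, had 4, 11 and 4 reads in ESCs and 0, 6 and 2 in EpiLCs, with overlap, and its libraries overlapped in each of the 12 comparisons of groups. Counting intervals here and below are exact and cover counting error only.

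At a mean normalized count of at least 15, 12 members were tested in J2WT and 11 were called lower and 0 higher, a call being an adjusted p below 0.05 with more than a 2-fold change. Of all 13877 tested genes 15% were called lower and 15.2% higher. The tested members are those with enough reads in ESCs, so their number says little about the family. At a count minimum of 5, 17 of 19 were called lower (15.9% of all tested genes). Over leave-one-out fits between 9 and 13 members were called. Summed neural markers, in ESCs mostly Stmn2 (385 CPM), moved with them, at 450 to 475 summed CPM in J2WT ESCs and 185 to 190 in EpiLCs, with 3 of 8 tested genes called higher and 1 lower. Their part in the result was not tested.

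In PclWT the gamma cluster was already low in ESCs, at 15.4 ± 1.55 CPM, and stood at 12.2 ± 3.94 in EpiLCs. Of the measurable gamma genes, 10 had a higher and 11 a lower mean in EpiLCs, of which 3 were lower and 1 was higher in every library (14.4% and 15.1% of all genes with a read). Pcdhgc3 had 4.17, 5.78 and 6.79 CPM in PclWT ESCs and 1.42, 5.22 and 6.01 in EpiLCs, so the groups overlapped. It was the only member tested, with a log2 fold change of -0.415 (SE 0.462, adjusted p = 0.556, edgeR), and 0 of 1 were called (8.68% of all tested genes were called higher and 6.55% lower). DESeq2 called 0 too, and it had no unadjusted p under 0.05. At a count minimum of 5, 0 of 7 members were called (9.47% higher and 6.91% lower of all tested genes). Without replicate 1 of PclWT EpiLC its log2 fold change was 0.0216. With both WT lines in 1 fit, 5 of 6 tested members were called lower in EpiLCs (9.33% of all tested genes), and 15 of 17 at a count minimum of 5 (10.3%). Members entered these fits through their reads in J2WT ESCs, the group where they were high, so these counts are a description. For the difference between the lines, 3 of 6 were called, less negative in PclWT (10.9% called in this direction), and 8 of 17 at a count minimum of 5 (10.5%, and 10.1% in the other direction, with 0 members).

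**Figure D3:**
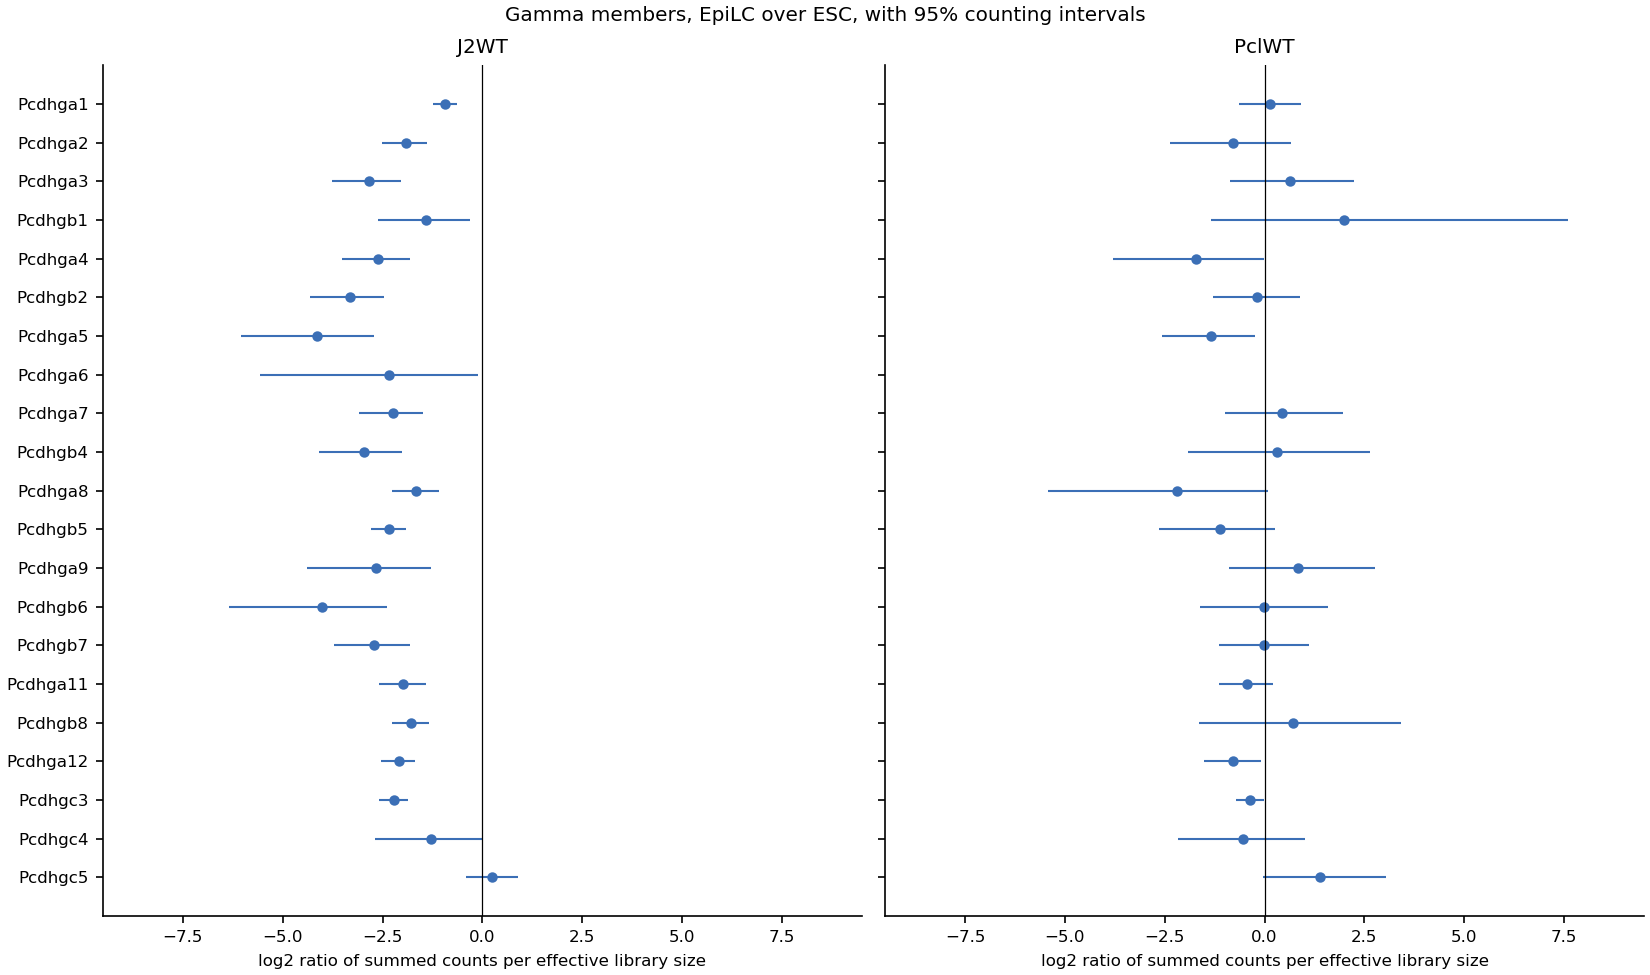
log2 ratio of EpiLC to ESC for the gamma genes in chromosomal order, from reads summed over 3 libraries per group and scaled by effective library size, with 95% counting intervals (lines) in J2WT (left) and PclWT (right). In J2WT all gamma A and gamma B genes lie left of 0, and in PclWT 10 of 21 gamma genes had the higher mean in EpiLCs; Pcdhga6 lacks a PclWT point because both groups had 3 reads or fewer.

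The WT lines were then compared as ESCs. The gamma B sum was 16.7 ± 2.02 CPM in J2WT and 2.20 ± 0.236 in PclWT, and the gamma A sum 26.0 ± 1.92 and 7.10 ± 0.712. All 18 measurable gamma A and gamma B genes were lower in every PclWT library (25.5% of all genes with a read). Of 9 members tested, 7 were called lower in PclWT and 0 higher (13.9% and 11.1% of all tested genes), and 15 of 18 at a count minimum of 5 (14.9% lower). These members passed the minimum through their reads in J2WT ESCs, so the number called carries no weight of its own.

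Pcdhgb8 differed most, with 66, 61 and 52 reads in J2WT ESCs and 0, 1 and 2 in PclWT ESCs, a ratio of 0.0278 (counting interval 0.00567 to 0.0824). Pcdhgb5 was lower by a log2 fold change of -3.40 (SE 0.272, adjusted p = 3.49e-08, edgeR). Pcdhgc3 differed little, at -0.442 (SE 0.171, adjusted p = 0.0288), and its libraries overlapped. It made up 14.5% ± 1.0 of gamma reads in J2WT ESCs and 35.9% ± 6.0 in PclWT ESCs. The lines differ in source and in depth, and these cannot be told apart from the line itself.

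JARID2 loss went with small differences in the gamma cluster and more reads in the beta cluster. The gamma sum was 51.4 ± 4.59 CPM in J2WT and 59.4 ± 0.799 in J2KO ESCs, and 13.3 ± 0.519 against 12.3 ± 1.83 in EpiLCs. In J2KO ESCs 7 of 21 measurable gamma genes were higher in every library than in any J2WT library and 0 were lower (20.2% and 21.2% of all genes with a read). In ESCs 17 members were tested and 1 was called higher, 0 lower (7.01% and 6.34% of all tested genes). This was Pcdhga9, with 0.747, 0.645 and 0.567 CPM in J2WT and 1.25, 1.67 and 1.26 in J2KO ESCs. It rose by a log2 fold change of 1.09 (SE 0.279, adjusted p = 0.00165, edgeR). It reached the count minimum of 15 through its reads in J2KO ESCs (21, 27 and 19, against 12, 10 and 9 in J2WT ESCs). It was called in each of the 5 leave-one-out fits that tested it, with log2 fold changes from 1.00 to 1.20. Being tested there depended on the same J2KO reads, so these fits add no weight. Without replicate 2 of J2KO ESC, and with J2 libraries of both stages fitted together, its mean count fell below 15 and it was not tested.

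Further gamma genes passed on p alone in J2KO ESCs, with smaller changes. Pcdhga11 had 2.74, 2.71 and 2.39 CPM in J2WT and 4.28, 4.58 and 3.92 in J2KO (log2 fold change 0.714, SE 0.152, adjusted p = 0.000307). Pcdhgb7 (0.808, adjusted p = 0.000864, edgeR) and Pcdhga12 (0.402, adjusted p = 0.00688, edgeR) were higher as well. In EpiLCs 4 members were tested and 0 were called (6.23% of all tested genes were called higher and 2.62% lower), and 0 of 10 at a count minimum of 5 (7.58% and 3.81%), with 2 at an unadjusted p under 0.05 and 0 called by DESeq2. There Pcdhga1 was lower by a log2 fold change of -0.790 (adjusted p = 0.0013, edgeR) and Pcdhgc3 higher by 0.747 (adjusted p = 0.00285, edgeR). For the difference of the JARID2 effect between stages, 1 of 14 members was called, Pcdhgb7, more negative in EpiLCs (5.31% of all tested genes).

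In the beta cluster, J2KO ESCs had 39, 40 and 23 reads, against 11, 10 and 11 in J2WT (ratio of the scaled sums 3.15, counting interval 2.10 to 4.84). In EpiLCs it had 16, 16 and 13 in J2KO and 5, 3 and 7 in J2WT (3.01, counting interval 1.65 to 5.81). The groups did not overlap at either stage. In EpiLCs 7 of 22 beta genes had a higher and 5 a lower mean in J2KO. Most J2KO EpiLC reads were from Pcdhb17 (5, 9 and 3, against 0, 0 and 5 in J2WT), Pcdhb14 (2, 4 and 5, against 1, 0 and 1) and Pcdhb7 (6, 1 and 1, against 0, 0 and 0). Of the 102 reads in J2KO ESCs, 43 were from Pcdhb14, with 21, 14 and 8 reads in J2KO and 2, 1 and 1 in J2WT ESCs. At a count minimum of 5, 22 members were tested and 2 were called higher (8.45% of all tested genes, and 7.84% lower), Pcdhb14 with a log2 fold change of 3.30 (SE 0.557, adjusted p = 1.65e-05, edgeR) and Pcdhga9. Pcdhb14 reached that minimum through its reads in J2KO alone.

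Loss of the Polycomb-like proteins went with more gamma RNA at both stages. In ESCs the gamma sum was 15.4 ± 1.55 CPM in PclWT, 30.6 ± 3.18 in TKO and 25.5 ± 1.67 in QKO. In EpiLCs it was 12.2 ± 3.94, 30.3 ± 1.55 and 21.2 ± 0.654. The gamma B sum in ESCs was 3.33 times as high in TKO as in PclWT (counting interval 2.50 to 4.49) and 2.56 times as high in QKO (1.90 to 3.50). TKO and QKO were compared with the same PclWT libraries. The other WT line, J2WT, had a gamma sum of 51.4 CPM in ESCs, above PclWT, TKO and QKO. Line and knockout cannot be told apart here.

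Most of these genes had too few reads for the test at the main count minimum, so the libraries are given first. In TKO ESCs 14 of 21 measurable gamma genes were higher in every library than in any PclWT library and 1, Pcdhga11, was lower (19.8% and 19% of all genes with a read). In QKO ESCs 11 were higher and 0 lower (19.7% and 20.3%). In EpiLCs 14 were higher in TKO and 7 in QKO, with 0 lower in either (higher: 16.9% and 16.3%; lower: 15.8% and 15.7%).

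**Figure D4:**
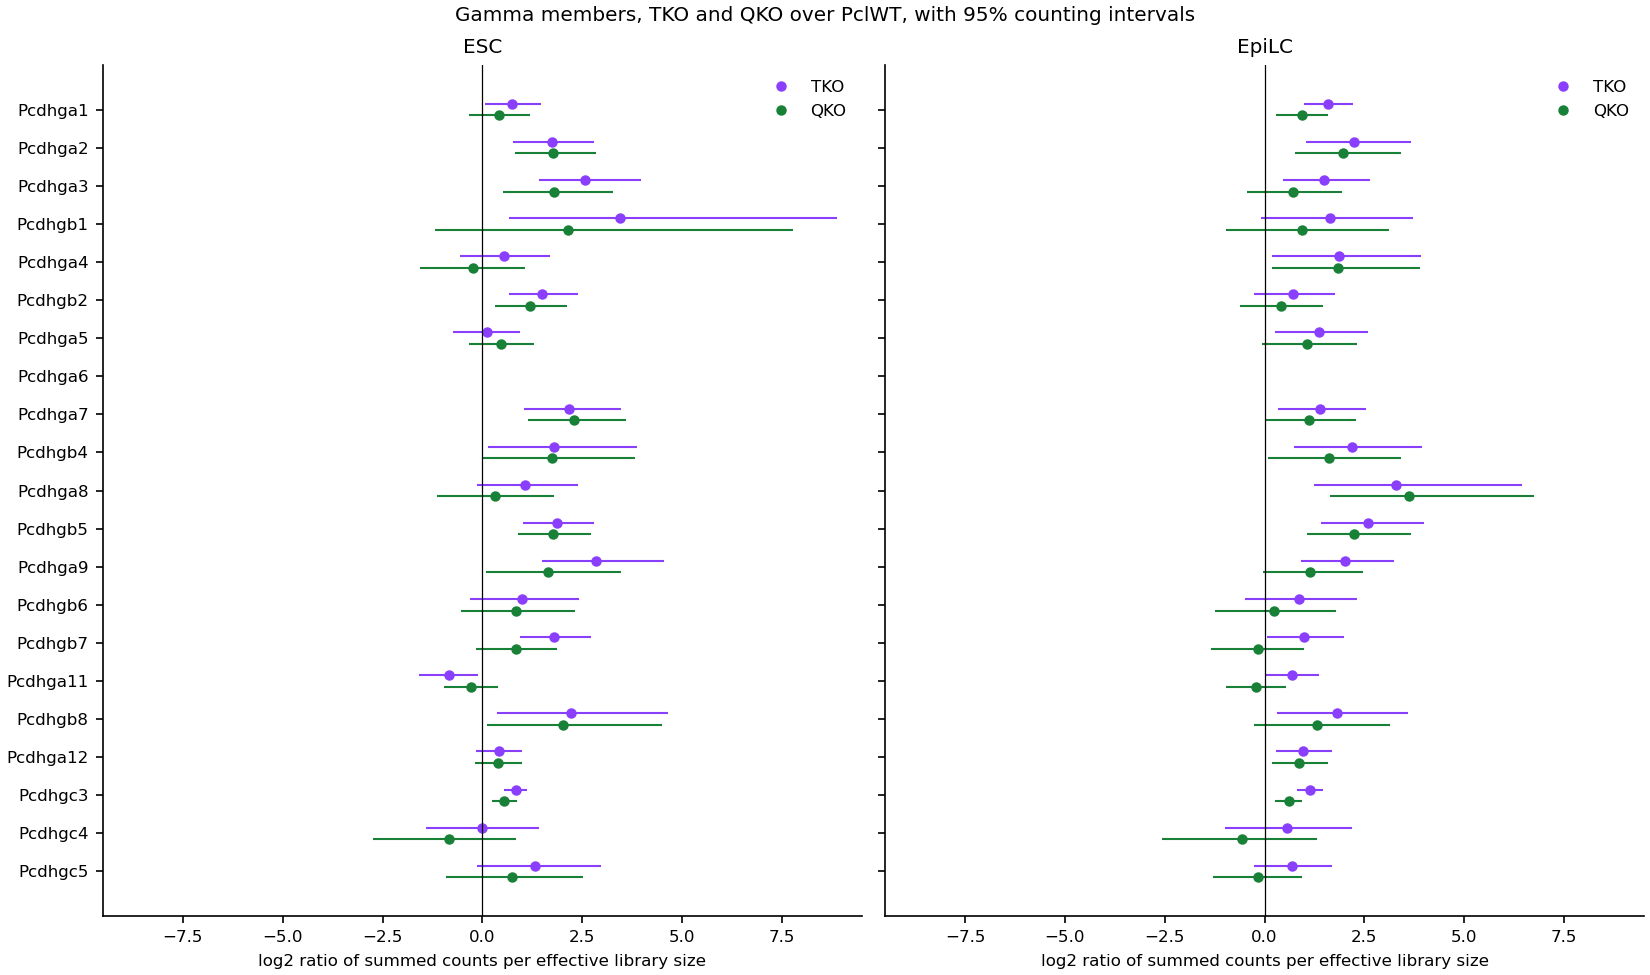
log2 ratio of TKO (purple) and QKO (green) to PclWT for the gamma genes, in ESCs (left) and EpiLCs (right), from reads summed over 3 libraries per group and scaled by effective library size, with 95% counting intervals. Most points lie right of 0, Pcdhga11 lies left of it in ESCs, and Pcdhga6 has no point because each group had 3 reads or fewer.

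Pcdhgc3 had 9.68, 10.9 and 9.01 CPM in TKO ESCs and 7.88, 8.005 and 8.37 in QKO ESCs, all above the PclWT ESC libraries, of which the highest was at 6.79. It rose by a log2 fold change of 0.803 in TKO (SE 0.164, adjusted p = 0.000273, edgeR) and 0.555 in QKO (SE 0.167, adjusted p = 0.00728, edgeR), under the fold threshold. In ESCs 2 members were tested in each mutant and 0 called (higher: 6.64% of tested genes in TKO and 6.16% in QKO; lower: 7.09% and 7.66%), with 1 in each at an unadjusted p under 0.05 and 0 called by DESeq2.

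In EpiLCs Pcdhga1 had 0.656, 1.02 and 1.60 CPM in PclWT, 2.85, 4.02 and 3.12 in TKO and 2.23, 2.26 and 1.88 in QKO. Both mutants lay above PclWT in every library. In TKO it rose by a log2 fold change of 1.54 (SE 0.328, adjusted p = 0.0122, edgeR), the only call among 2 tested members (6.88% of all tested genes were called higher and 7.18% lower), and without replicate 2 of TKO EpiLC its log2 fold change was 1.38 with an adjusted p of 0.0569, not called. Over the 6 leave-one-out fits the log2 fold change of Pcdhga1 ran from 1.31 to 1.94. Pcdhga1 reached the main count minimum through its reads in TKO EpiLCs (32, 39 and 22, against 6, 10 and 16 in PclWT EpiLCs). Being tested depended on these TKO reads, so the call and the leave-one-out fits add no weight to the library values. In QKO EpiLCs the log2 fold change of Pcdhga1 was 0.917 (SE 0.328, adjusted p = 0.0709, edgeR). There it was tested through its QKO reads (22, 20 and 22). In QKO EpiLCs 0 of 2 members were called (6.51% higher and 7.22% lower), with 1 at an unadjusted p under 0.05 and 0 by DESeq2. Pcdhgc3 had 8.90, 9.48 and 10.2 CPM in TKO EpiLCs, above the highest PclWT EpiLC library at 6.01, with a log2 fold change of 1.12 (SE 0.412, adjusted p = 0.0752, edgeR) that DESeq2 called.

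At a count minimum of 5, 7 of 13 tested members were called higher in TKO ESCs (7.58% of all tested genes), 4 of 10 in QKO ESCs (6.88%), 5 of 14 in TKO EpiLCs (7.38%) and 1 of 12 in QKO EpiLCs (6.67%), and 0 lower in each (9.04%, 9.89%, 7.97% and 8.04%). For the difference of the TKO effect between stages 0 of 3 members were called by edgeR or DESeq2 and 0 had an unadjusted p under 0.05 (4.27% of all tested genes more positive in EpiLCs). Members near this minimum passed it through their reads in the mutants. Pcdhga9 had 14, 12 and 10 reads in TKO ESCs and 2, 3 and 0 in PclWT ESCs (log2 fold change 2.73, SE 0.559, adjusted p = 0.000243, edgeR). Pcdhgb5 had 20, 21 and 14 reads in TKO ESCs and 17, 14 and 15 in QKO ESCs, against 7, 3 and 5 in PclWT (1.82 and 1.75, adjusted p = 0.000305 and 0.000387, edgeR). Pcdhga2 was called higher in TKO and QKO at both stages. Pcdhga11 differed, with 10, 9 and 7 reads in TKO ESCs and 13, 16 and 17 in PclWT ESCs.

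**Figure D5:**
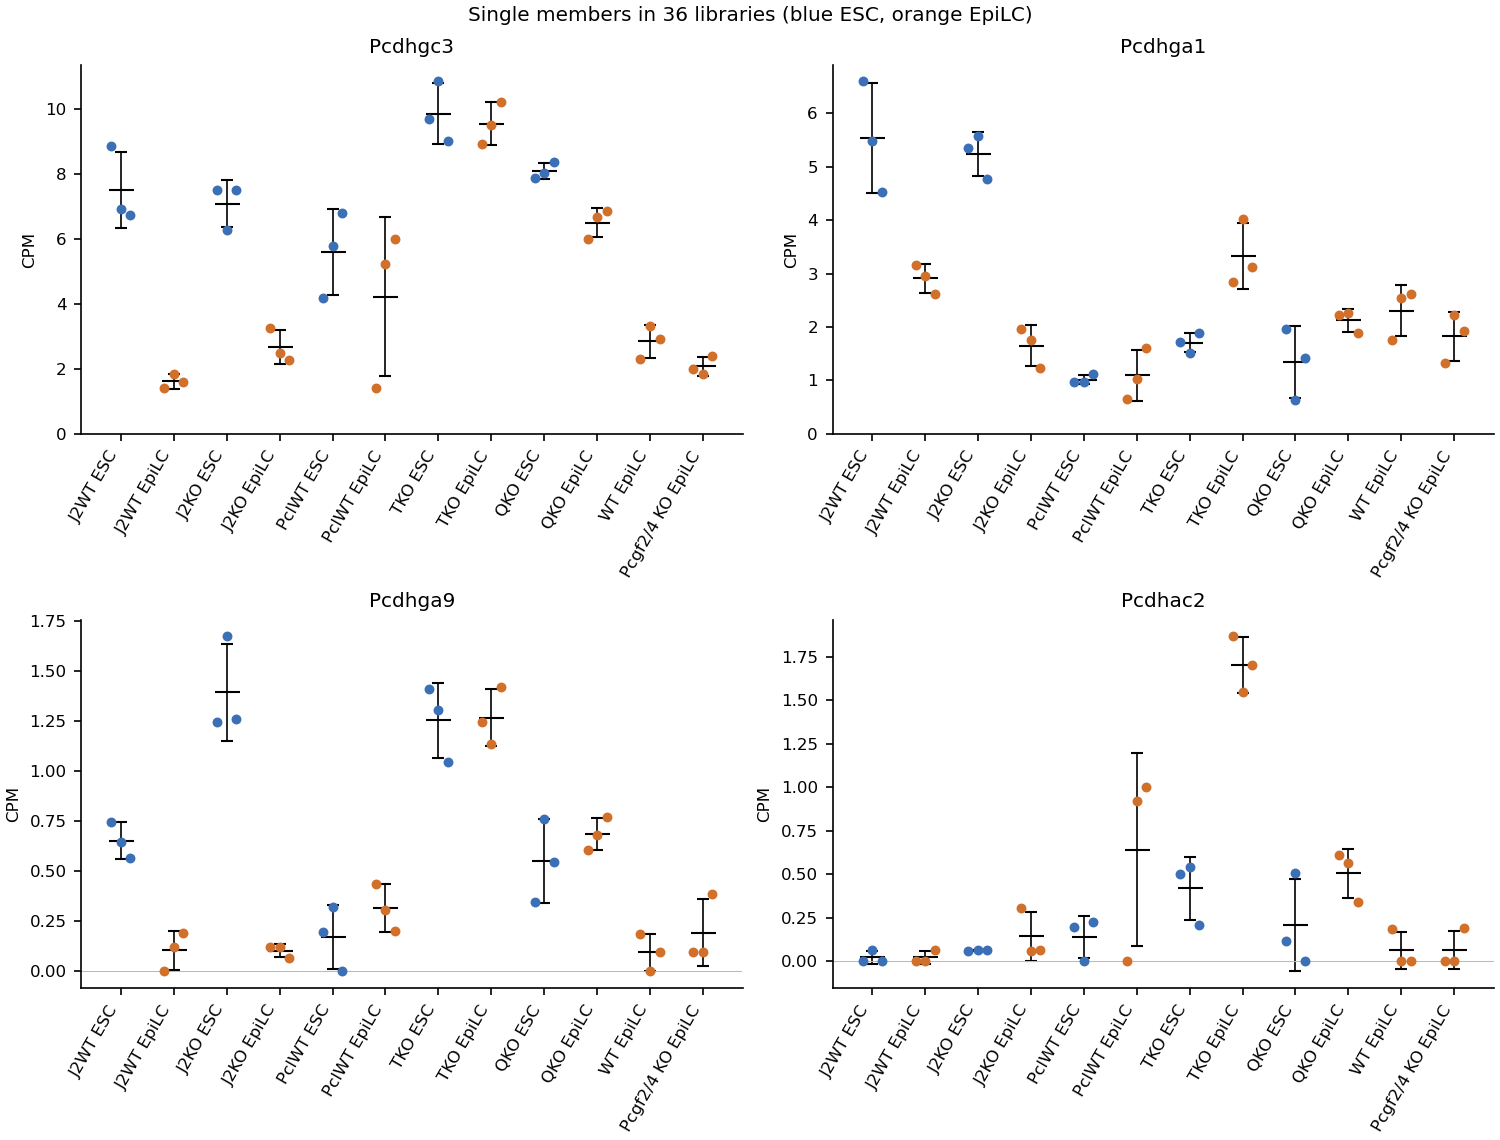
CPM of Pcdhgc3, Pcdhga1, Pcdhga9 and Pcdhac2 in each of 36 libraries (points), with group mean and SD (lines), ESCs in blue and EpiLCs in orange. Pcdhgc3 is highest in TKO, Pcdhga1 in J2WT and J2KO ESCs, and Pcdhac2 in TKO EpiLCs.

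QKO lacks JARID2 in addition to the proteins lost in TKO, and was compared with TKO directly. In ESCs the gamma sum was 0.831 times that of TKO (counting interval 0.749 to 0.920), lower in every library. In EpiLCs the gamma sum was lower in QKO (21.2 ± 0.654 CPM) than in TKO (30.3 ± 1.55), without overlap. Pcdhgc3 had 5.98, 6.67 and 6.84 CPM in QKO EpiLCs, below each TKO library (log2 fold change -0.555, SE 0.14, adjusted p = 0.00246, edgeR). Pcdhga1 was lower by a log2 fold change of -0.673 (SE 0.233, adjusted p = 0.0218, edgeR). Of 3 members tested at each stage 0 were called (1.37% higher and 3.21% lower of all tested genes in ESCs, 1.52% and 3.30% in EpiLCs), with 1 in ESCs and 2 in EpiLCs at an unadjusted p under 0.05 and 0 by DESeq2. At a count minimum of 5, Pcdhac2 was lower in QKO EpiLCs (-1.79, SE 0.38, adjusted p = 0.000485, edgeR), 1 of 2 members so called (4.28% of all tested genes). It reached that minimum mainly through its reads in TKO EpiLCs (21, 15 and 12, against 6, 5 and 4 in QKO EpiLCs).

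Markers of other cells moved in the mutants too. Summed neural markers were at 285 to 301 CPM in PclWT, 378 to 394 in TKO and 269 to 272 in QKO ESCs, and at 152 to 178, 277 to 288 and 295 to 311 in EpiLCs. The sum hides opposite changes in ESCs. Of 7 tested neural genes, 1 was called higher and 2 lower in TKO ESCs (median log2 fold change -0.342). In QKO ESCs 1 was called higher and 3 lower (median -0.889). In TKO EpiLCs 5 of 8 tested neural genes were called higher, among them the progenitor gene Sox1 (3.12 CPM in PclWT, 87.3 in TKO), while Dcx, a marker of young neurons, was at 0.07 and 0.09 CPM. All 4 primitive endoderm markers were called higher in TKO EpiLCs, and their sum was 1.60 to 2.46 CPM in PclWT, 47.3 to 56.3 in TKO and 29.9 to 31.7 in QKO EpiLCs. In ESCs that sum was 3.12 to 4.17, 10.5 to 10.9 and 15.3 to 18.3. Naive ESC markers moved as well, with summed levels of 195 to 227 CPM in PclWT, 471 to 524 in TKO and 1028 to 1134 in QKO EpiLCs, and 3 of 6 called higher in TKO and 5 of 6 in QKO EpiLCs. Summed fibroblast markers were between 8.19 and 25.2 CPM over all 36 libraries. In J2KO ESCs summed neural markers were at 594 to 606 CPM, against 450 to 475 in J2WT, with 1 of 6 tested genes called higher and 0 lower. The sums were alike in EpiLCs (185 to 188 and 185 to 190). Naive markers were at 4159 to 4211 in J2KO and 3164 to 3174 in J2WT ESCs, and at 325 to 328 and 212 to 226 in EpiLCs. In Pcgf2/4 KO EpiLCs they were at 499 to 546, against 247 to 259 in WT, with 5 of 6 called higher. The part of these cells and of the naive markers in the protocadherin values was not tested.

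Loss of PCGF2 and PCGF4 left the gamma sum at 9.37 ± 1.19 CPM, against 10.9 ± 1.21 in WT EpiLCs. Pcdhgc3 had 1.99, 1.84 and 2.40 CPM in the mutant and 2.31, 3.32 and 2.90 in WT (log2 fold change -0.425, SE 0.237, adjusted p = 0.124, edgeR), with overlap. Of 2 members tested 0 were called (1.96% higher and 3.84% lower of all tested genes), with 0 at an unadjusted p under 0.05 and 0 by DESeq2. At a count minimum of 5, Pcdhga2 was called higher, with 11, 6 and 7 reads in the mutant and 2, 3 and 5 in WT (1.26, SE 0.517, adjusted p = 0.0384, edgeR), 1 of 6 tested (2.68% of all tested genes). It reached that minimum through its reads in the mutant.

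Non-clustered protocadherins lie outside the alpha, beta and gamma clusters and lack the shared promoter arrangement. Of 12 listed, 2 were tested in J2WT, where Pcdh1 rose from 4.72 to 176 CPM in EpiLCs (log2 fold change 5.23, adjusted p = 1.32e-26, edgeR) and Pcdh19 fell from 11.9 to 0.534 CPM (-4.44, adjusted p = 9.18e-17, edgeR). In TKO EpiLCs 2 of 4 were called higher, Pcdh1 (28.7 to 76.6 CPM) and Pcdh8 (0.202 to 3.79 CPM), and in TKO ESCs Pcdh19 was called lower (8.46 to 2.79 CPM).

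Of 22 known regulators of the clusters, all tested, 4 were called higher and 2 lower in J2WT EpiLCs, against 15.2% and 15% of all tested genes. The de novo DNA methyltransferase genes Dnmt3a (log2 fold change 4.47, adjusted p = 2.37e-29, edgeR) and Dnmt3b (3.12, adjusted p = 3.06e-28, edgeR) rose, with Dnmt3l and the cohesin gene Stag2, and the demethylase gene Tet2 (-2.29) and the histone methyltransferase gene Setdb1 (-1.09) fell. In PclWT EpiLCs 3 were called higher and 1 lower (8.68% and 6.55% of all tested genes). Over leave-one-out fits Dnmt3a rose by 1.09 to 1.30, Dnmt3b by 1.91 to 2.15 and Tet3 by 1.08 to 1.62. Tet2 changed by -3.52 to -2.81. The part of these genes in the protocadherin values was not tested. In PclWT ESCs Dnmt3a was higher (2.40, adjusted p = 8e-14, edgeR) and Dnmt3b (-1.28) and Setdb1 (-1.21) lower than in J2WT ESCs. In TKO and QKO Dnmt3a was the only regulator called in ESCs, lower in both (-1.26 and -1.42), and it was called higher in EpiLCs of both (1.66 and 2.49). Tet2 was called higher there too (1.85 and 1.84), and Dnmt3b lower in QKO EpiLCs (-1.02). In J2KO ESCs Dnmt3b was the only one called (-1.56), and in J2KO EpiLCs Dnmt3a (1.19). Tet2 was the only one called in Pcgf2/4 KO EpiLCs, higher by 1.42 to 1.52 over leave-one-out fits. Among 15 listed genes next to or between the clusters, 12 were tested in J2WT and 0 called, with no call in J2KO, TKO or QKO at either stage. Dnd1 was called higher in Pcgf2/4 KO EpiLCs (1.25, adjusted p = 3.26e-11, edgeR) and in PclWT against J2WT ESCs, and Tmco6 in PclWT EpiLCs.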

How the data were processed

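The authors made poly(A) libraries with a kit that does not mark strand, used STAR with GRCm38, and the deposited files hold raw gene counts. The column without strand was used, so antisense partners cannot be told apart. Members and lists were chosen with earlier results of these data known. Symbols and exons came from GENCODE annotation of GRCm38 (55141 of 55401 genes). Levels are CPM scaled by TMM. A gene entered a test where its mean normalized count reached 15 in the libraries compared; tests were run with edgeR 4.0.16 (R 4.3.3), quasi-likelihood, over all genes; sums over members were not tested. Steps were tested on simulated data. Alternatives were RLE, DESeq2 1.42.0, a minimum of 5 or none, the replicate number as block, line families fitted together and each library left out. Named genes are the C-type members, up to 10 called members in each direction, the highest member of each subfamily and genes of the fixed lists; others were named after their values were seen. Same-numbered PclWT libraries of both stages deviated together (correlations 0.165 to 0.390 across genes, all over 0.1). Replicates 2 and 3 correlated about as well across numbers (0.204 and 0.172), with replicate 1 apart at both stages, so pairing by number was not established. The reported tests used no pairing by replicate number. As an alternative the block changed no count of members called.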

Additional observations from a re-analysis of the deposited data

Results flagged for a closer look

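4 members had an effect that differed between groups by an interaction test (edgeR, adjusted over all genes). The change from ESC to EpiLC was less negative in PclWT than in J2WT for Pcdhga11 (difference of log2 fold changes 1.49, SE 0.351, adjusted p = 0.00497), Pcdhga12 (1.28, SE 0.409, adjusted p = 0.0256) and Pcdhgc3 (1.81, SE 0.518, adjusted p = 0.0149). These were 3 of 6 members tested, while 10.9% of all tested genes were called in this direction. Members entered this fit largely through their reads in J2WT ESCs, the group where they were high, so this count is a description. Fits that left out 1 library called between 2 and 4 members, and Pcdhga12 was lost without replicate 1 of PclWT ESC or replicate 3 of PclWT EpiLC. The starting level in PclWT ESCs differed by gene. Against J2WT ESCs, Pcdhga12 was lower (log2 fold change -1.69 to -1.49 over leave-one-out fits) and Pcdhgc3 only a little (-0.609 to -0.268). Pcdhga11 had 13, 16 and 17 reads in PclWT and 44, 42 and 38 in J2WT ESCs. In EpiLCs it had 8, 12 and 14 against 8, 11 and 13, and Pcdhgc3 had 13, 51 and 60 against 23, 30 and 25. PclWT libraries held fewer reads in total. The EpiLC stage also differed between lines. Summed EpiLC markers (Fgf5, Otx2, Pou3f1 and Dnmt3b) were at 517 to 585 CPM in PclWT and 2903 to 2988 in J2WT EpiLCs. Summed naive markers were alike there, at 195 to 227 and 212 to 226 CPM. The part of either difference was not tested.

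The effect of JARID2 loss on Pcdhgb7 was more negative in EpiLCs than in ESCs (difference -2.01, SE 0.748, adjusted p = 0.024, edgeR), 1 of 14 members tested (5.31% of all tested genes were called in this direction). It rests on few reads, with 8, 1 and 3 in J2WT EpiLCs and 2, 1 and 2 in J2KO EpiLCs, against 29, 22 and 26 and 54, 44 and 38 in ESCs. The call was lost without replicate 1 of J2WT EpiLC (-1.04) or replicate 2 of J2KO EpiLC (-1.75).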

How the results depend on the processing

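With a count minimum of 5, members called lower numbered 15 in both WT lines together, 17 in J2WT and 15 in PclWT against J2WT ESCs, and 1 of 12 (4.34% of all genes) and 2 of 16 in QKO against TKO (ESC, EpiLC); those called higher numbered 8 for the difference between lines, 2 in J2KO ESCs, 7 and 5 in TKO, 4 and 1 in QKO, 1 in Pcgf2/4 KO and 1 of 14 for the difference of the TKO effect between stages (3.95% of all genes). With no filter the lower calls were 15 of 47 members in both WT lines (2209 of 33505 genes), 18 of 37 in J2WT (3183 of 31248), 16 of 42 in PclWT against J2WT ESCs (2843 of 30033), and 1 of 45 in QKO against TKO at each stage (709 of 27782 and 732 of 28218). The higher calls were 1 of 47 in both WT lines (2892 of 33505 genes), 1 of 45 in PclWT (1625 of 29035), 10 of 47 for the difference between lines (1752 of 33505), 1 of 42 in PclWT against J2WT ESCs (2803 of 30033), 2 of 43 and 2 of 38 in J2KO (1591 of 30267 and 1432 of 31243), 9 of 46 and 6 of 46 in TKO (1317 of 28661 and 1234 of 28727) and 5 of 42 and 3 of 45 in QKO (1175 of 28334 and 1108 of 28751). These settings test more genes. Fitting line families together gave 0 higher in J2KO ESCs, where Pcdhga9 fell below the count minimum and was not tested, and 2 in TKO EpiLCs, where DESeq2 also gave 2; the cause of the latter was not tested. Leaving out 1 library gave 0 to 1 calls in J2KO ESCs, TKO EpiLCs, QKO EpiLCs (1 without replicate 3 of PclWT EpiLC) and the JARID2 effect between stages. The log2 fold change of Pcdhgc3 turned sign, uncalled, with 1 library left out: in PclWT it ran from -0.751 to 0.0216 (without PclWT EpiLC replicate 1), in J2KO ESCs from -0.148 to 0.0591 (without J2WT ESC replicate 1), for the TKO effect between stages from -0.0774 (without PclWT EpiLC replicate 1) to 0.694 and for the QKO effect from -0.368 (without the same library) to 0.411, with -0.12 and -0.00201 without PclWT ESC replicate 3 and QKO EpiLC replicate 3. Without TMM the gamma sum was 55.6 CPM in J2KO ESCs (59.4 with it), 12.6 in J2WT EpiLCs (13.3) and 32.0 in TKO EpiLCs (30.3), shifts larger than the SD between libraries; the log2 ratios of the gamma subfamily sums between groups kept their sign. With the replicate number as block, members called numbered 11 in J2WT (lower) and 1 in TKO EpiLCs (higher), with no count changed in any comparison. Whether the number pairs samples is not known. Most members have under 15 reads per library, which limits single-gene tests.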

Other observations

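Genes outside the clusters whose pattern was most like the beta sum over the 12 groups were A630089N07Rik, AW146154, Gm20939, Cabp7 and Flrt2 (Pearson r of log2 group means 0.965, 0.949, 0.937, 0.935 and 0.928, of 13360 genes searched). The beta sum rests on 4 to 102 reads a group, and groups share lines and depth, so these are descriptions with no test.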
